A study of Mus musculus with 12 samples.

Results

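Rab GTPases were examined in HT22 cells, an immortalised mouse hippocampal neuronal line, with and without mesaconitine (MA), a diester-diterpenoid alkaloid of Aconitum. Genes were taken as Rab GTPases by name, when the symbol was Rab followed by a number and at most a short suffix, so that interacting proteins, activators and pseudogenes were left out. This gave 59 of the 25239 genes of the expression table and 6 of the 2643 regions of the m6A peak table, the latter on 5 Rab genes. The wild-type HT22 cells had been exposed to 800 μM MA for 72 h or left untreated, and the polyadenylated RNA was cut into fragments of 100 to 200 nt. A 10% share was kept as input and the rest was pulled down with an anti-m6A antibody (IP), giving 4 groups of 3 libraries each (the input and the IP of control cells, the input and the IP of MA cells). All 4 groups came from 1 line, and whether the libraries of a group came from separate cultures was not given in the sources used here.

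Rab proteins are small GTPases that mark the membranes of a cell. In the GTP-bound state a Rab sits on its membrane and recruits effectors (tethers, motors and sorting proteins), and after GTP hydrolysis it is taken back to the cytosol. Guanine nucleotide exchange factors (GEFs) switch Rabs on and GTPase-activating proteins (GAPs) switch them off. Rab7 acts on late endosomes, lysosomes and autophagosomes, where it serves fusion with the lysosome, and neurons depend on it for axonal transport and for the turnover of cargo. N6-methyladenosine (m6A) is a methyl mark on adenosines of mRNA, deposited mostly in the sequence context DRACH (D stands for A, G or T, R for A or G, and H for A, C or T), often near stop codons and in 3′UTRs.

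The transcript stretches around the DRACH motif of the Rab peaks are shown as the context of the mark in the regions where reads were counted. The motif is frequent, with a median of 19.6 per kilobase over the expressed Rab transcripts, so its presence alone does not mark a methylated site. Each is 29 bases long, is written 5′ to 3′ on the strand of the gene from the GRCm38 genome, and carries the motif in capitals. Where a peak held several motifs, the one nearest to the centre of its exonic part is printed.
Rab11b, chr17:33747654-33747682, minus strand: tgccagagcctgTGACTgccctgcacttt
Rab22a, chr2:173659910-173659938, plus strand: cggctgttgaggTGACTccgccggacaag
Rab43, chr6:87791485-87791513, minus strand: cccactggcctgAGACCtgcctgccttaa
Rab44, chr17:29138020-29138048, plus strand: ggccaaccgggaGAACCtgcagctcaggg
Rab44 was listed at a mean of 0, so its stretch is that of the annotated transcript and not of an mRNA with a listed level. Rab11b and Rab22a carried the same 5 letters. In Rab11b the first 3 of them are the stop codon itself, at chr17:33747668-33747670. The Rab11b stretch ran 5 bases past its peak and the Rab43 stretch, at the edge of the Rab43 peak farther from the stop codon, 11 bases past it. The peak of Rab31 and the Rab43 peak nearer to the stop codon held no DRACH on the strand of the gene.

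The reads of each peak were deposited as 1 number per group, taken here as the sum over its 3 libraries. The level of each gene was deposited as 1 mean over the compared libraries. No spread between replicates can therefore be given for any value, and no test was made. Intervals below are 95% intervals that cover counting error only, which understates the error between cultures, and whether reads were collapsed by their molecular identifiers was not given in the sources used here. Over all peaks the control input held 288659 reads, the control IP 267002, the MA input 214778 and the MA IP 359889. Of the neuronal markers, 6 of 10 were listed at 0 (Map2, Snap25, Nefl, Nefm, Dcx and Gap43) and 2 had a mean of at least 10 (Tubb3 with 473 and Ncam1 with 6225). Most of these neuronal markers thus had no listed level, although the line is of hippocampal origin. Of 15 general genes none was listed at 0, but Gapdh had only 893 against 54350 for Actb. A listed level may therefore understate a gene. Of the markers of hippocampal excitatory neurons 1 of 4 reached 10, of astrocytes 1 of 4, of microglia 1 of 3 and of oligodendrocytes 1 of 3. All 4 fibroblast markers were above 10, led by Col1a2 with 129498 and Col1a1 with 100160. Their part in the Rab levels was not tested.

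Most of the Rab family was expressed. Of the 59 genes, 51 had a mean normalized count above 0 and 8 were listed at 0, that is 13.6% at 0 against 35.9% of all genes. The sets are unlike, since only 14020 of all 16178 genes above 0 were matched to a coding transcript. A mean of at least 1000 was found for 28 of the Rab genes, 17 lay between 10 and 1000, and 6 lay above 0 but under 10 (Rab33a, Rab17, Rab15, Rab42, Rab25 and Rab40b, from 7.83 down to 0.97). Divided by the length of the longest coding transcript, which allows genes to be set side by side, the median of the 51 was 386 per kilobase, against 256 over the 14020 expressed genes with a length. The typical Rab gene stood at percentile 58.9 on that scale. The family was uneven, since its 10 highest members held 59.6% of the summed level per kilobase.

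**Figure D1:**
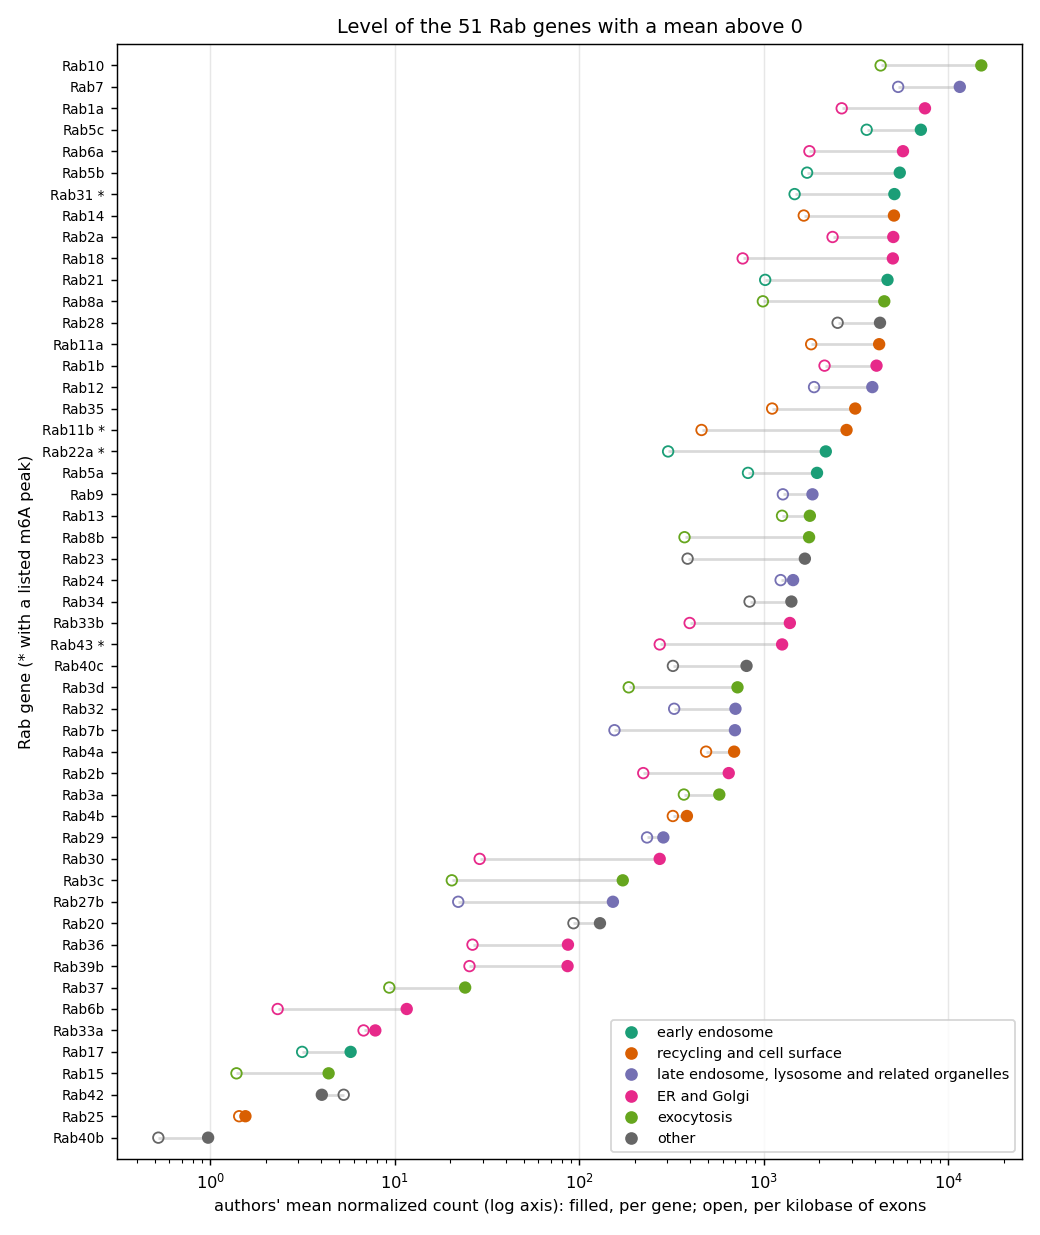
Level of each of the 51 Rab genes above 0, as the mean normalized count of the authors (filled points) and the same value per kilobase of the longest coding transcript (open points), on a log axis; colours give the role and stars the genes with a listed peak. Rab10 leads by mean with 15077, Rab7 leads per kilobase with 5341, and the lowest, Rab40b, has a mean of 0.97.

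Rab7, the Rab of late endosomes and lysosomes, had the highest level of the family per kilobase. Its mean was 11531, which gave 5341 per kilobase and percentile 97.1 among all expressed genes. Rab10, which serves exocytosis and the delivery of membrane proteins to the cell surface, followed with 4292 per kilobase from a mean of 15077. Rab7 was thus 1.24 times as high as Rab10 per kilobase, while Rab10 had 1.31 times the mean of Rab7, and the order of these neighbours depends on the length correction. With the union of all annotated exons as length they were close, at 4418 per kilobase for Rab7 and 4292 for Rab10. No spread over libraries is given, so it cannot be said whether they differ beyond it. A processed pseudogene, Rab7-ps1, shares 14.5% of the 50-base stretches of Rab7, and how reads in these stretches were assigned was not given in the sources used here.

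Among the late endosomal and lysosomal Rabs, 8 of 11 were above 0 and 4 reached a mean of 1000, and the group held 22.0% of the summed Rab level per kilobase, of which Rab7 alone made up 11.2% of the family sum. Rab12, implicated in lysosomal trafficking, had a mean of 3869 (1870 per kilobase). Rab9, which returns receptors from late endosomes to the Golgi, had 1833 (1267 per kilobase), and Rab24, linked to autophagy, 1439 (1232 per kilobase, or 714 with the union of all annotated exons as its length). Rab7b, a relative of Rab7 on endosomes and the Golgi, was low with 155 per kilobase. Listed at 0 were Rab27a and Rab38, Rabs of lysosome-related organelles such as melanosomes, and Rab9b, a paralog of Rab9.

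All 7 early endosomal Rabs were above 0 and 6 reached a mean of 1000, with 18.8% of the summed level per kilobase. The Rab5 proteins, which drive the fusion of early endosomes, were not alike in level. Rab5c stood at 3605 per kilobase (mean 7092), Rab5b at 1714 (mean 5450) and Rab5a at 820 (mean 1940), or at 368 with the union of all annotated exons as its length. Rab31, which acts between the trans-Golgi network and endosomes, had 1467 per kilobase (mean 5095), and Rab22a, which sorts cargo on early endosomes, 303 (mean 2165). Rab21, which takes part in integrin uptake, had 1016 per kilobase. Rab17, a Rab of polarised epithelia, had a mean of only 5.75. For Rab5b, 13.0% of the stretches are also found in Gm13991.

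The recycling Rabs were led per kilobase by Rab11a, the main Rab of the recycling endosome, with 1804. All 7 members were above 0 and 4 reached a mean of 1000, with 12.3% of the summed level per kilobase. Rab14, which works between the Golgi and endosomes, had a mean of 5068 and 1645 per kilobase, a value that was 373 when the union of all annotated exons was used as its length. Rab11b, the close paralog of Rab11a, had 459 per kilobase (mean 2805). Rab4a and Rab4b, which serve fast recycling, had 486 and 321 per kilobase (194 for Rab4b with the union of exons), and 80.3% of the stretches of Rab4b are shared with Gm21983. Rab25, the epithelial member of the Rab11 subfamily, had a mean of 1.55.

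The Rabs of the ER and Golgi formed the largest of these sets, with 13 of 15 above 0, 7 at a mean of 1000 or more and 22.4% of the summed level per kilobase. Rab1a and Rab1b, which carry vesicles from the ER to the Golgi, had 2641 and 2131 per kilobase (means 7465 and 4077). Rab2a, which acts between the Golgi and its neighbours, had 2356 (mean 5026), Rab6a, the Rab of retrograde Golgi traffic, 1765 (mean 5673), and Rab18, found on the ER and lipid droplets, 767 (mean 5000). Rab43, a Rab of the Golgi, had 273 per kilobase (mean 1255). Of its 50-base stretches 90.4% are also part of Gm45140, a longer annotated gene that overlaps Rab43 on the same strand, so its reads cannot be told apart from those of Gm45140 over most of its length. Rab6b, the form of Rab6 found mostly in neurons, had a mean of 11.6, and Rab19 and Rab39 were listed at 0.

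Of the Rabs of exocytosis, 9 of 11 were above 0 and 4 reached a mean of 1000, with 15.8% of the summed level per kilobase. After Rab10 came Rab13, a Rab of epithelial junctions, with 1254 per kilobase, and Rab8a, which serves surface delivery and cilia, with 987, an order that turned with the union of exons as length (772 for Rab13 and 960 for Rab8a). The Rab3 proteins, which sit on synaptic vesicles and secretory granules, were lower. Rab3a, the main form of the brain, had 368 per kilobase, Rab3d 185 and Rab3c 20.3, and Rab3b was listed at 0. Rab26, a Rab of secretory granules, was also listed at 0. The 8 members with other or mixed roles held 8.74% of the summed level per kilobase. In this set Rab28, a Rab of cilia, stood at 2510 per kilobase, or at 940 with the union of exons as its length, and Rab44 was listed at 0.

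A listed m6A peak was found on 5 Rab genes. Of the 28 Rab genes with a mean of at least 1000, 4 (14.3%) had one, namely Rab11b, Rab22a, Rab31 and Rab43, against 1122 of 6459 genes of that level (17.4%). Among all genes above 0 the shares were 4 of 51 (7.84%) and 2021 of 16178 (12.5%). With so few genes these shares do not separate the Rab genes from the rest. The 4 had long transcripts, with a median of 5357 bases against 2506 bases for the 47 expressed Rab genes with no listed peak. The density of the motif was alike, with medians of 18.5 and 19.8 DRACH per kilobase. Rab7 had no listed peak, although its longest coding transcript of 2159 bases holds 58 DRACH motifs. No listed peak was on a Rab of late endosomes and lysosomes or of exocytosis. The table used here holds fewer peaks than the study describes, so a gene with no listed peak, Rab7 included, may have one that was not analysed here, and nothing is read from its absence.

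The 6 peaks lay in different parts of their transcripts. The Rab11b peak (chr17:33747659-33747708, minus strand) spans 50 bases of the last exon, exon 5 of 5, with its midpoint 15 bases before the end of the stop codon. The Rab22a peak (chr2:173659870-173659944, plus strand) spans 75 bases of the 5′UTR in exon 1 of 7, with its midpoint 199 bases before the start codon. The Rab31 peak (chr17:65652426-65652475, minus strand) spans 50 bases of the 3′UTR, 1956 bases after the stop codon. Rab43 had 2 peaks of 75 bases each in its 3′UTR, with 50 bases between them. The one nearer to the stop codon (chr6:87791553-87791627, minus strand) has its midpoint 1000 bases after it, and the farther one (chr6:87791428-87791502) 1125 bases after it.

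**Figure D2:**
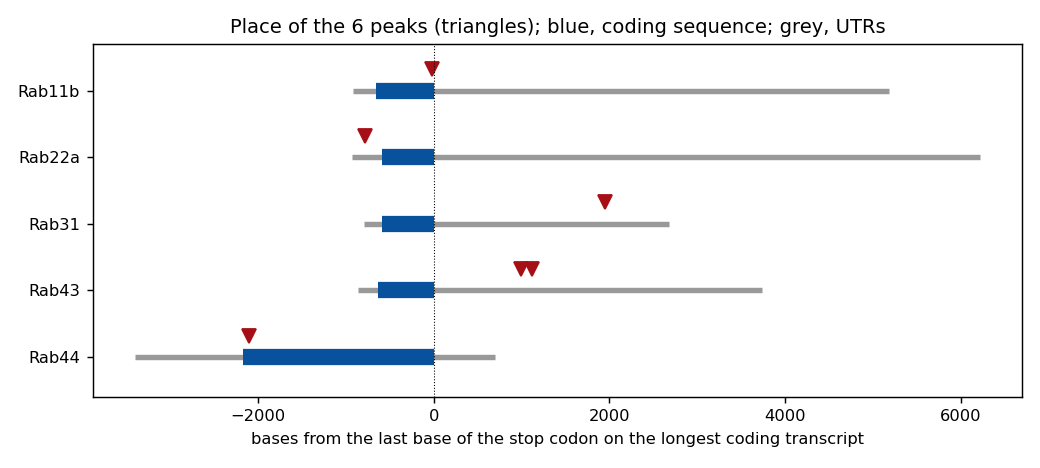
Place of the 6 peaks on the longest coding transcript of each gene, in bases from the last base of the stop codon; blue bars are coding sequence, grey bars UTRs and triangles peak midpoints (for Rab44, the midpoint of the exonic part). The Rab11b peak sits at the stop codon, that of Rab22a in the 5′UTR, and the peaks of Rab31 and Rab43 1000 to 1956 bases into the 3′UTR.

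The Rab44 region differed in kind from the others. It spans 1791 bases (chr17:29136271-29138061, plus strand), of which 175 are exonic and 1616 are not, and its gene was listed at 0. Rab44 is a large Rab with EF hands known mostly from blood cells. On the opposite strand, 18.5% of the 50-base stretches of the region match transcripts of Rpl35a, a ribosomal protein gene with a mean of 1817. The pseudogene Rpl35a-ps3 matches 16.3% of the stretches, as do Gm10243, Rpl35a-ps2, Rpl35a-ps4 and Rpl35a-ps6. On the same strand the most was 0.69%, with Tctn1. The libraries were stranded, but the strand setting of the counting was not given in the sources used here. Of 103 peaks on genes listed at 0, 87 (84.5%) were longer than 1000 bases, against 528 of 2472 (21.4%) on genes above 0. Its values are given here but were read as values of the region and not of Rab44 mRNA.

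To compare the conditions, the reads of each group were scaled by the median of ratios over all 2643 peaks, 0.5 reads were added, and IP was divided by input in each condition, on a log2 scale. A change is the ratio in MA minus that in control, so it is relative to the typical peak, and more than 1.5-fold was taken as the rule of size. By it, the change was higher in MA for 3 of the 6 Rab peaks (Rab22a, Rab31 and the Rab43 peak nearer to the stop codon), against 25.7% of all peaks. It was lower for 1 of the 6 (Rab11b), against 27.4% of all peaks. With 6 peaks these counts do not separate the Rab genes from the rest. Without scaling, 89.2% of the peaks past 1.5-fold were higher in MA, against 48.4% with it. The median change of all peaks was then 0.90 instead of -0.05.

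**Figure D3:**
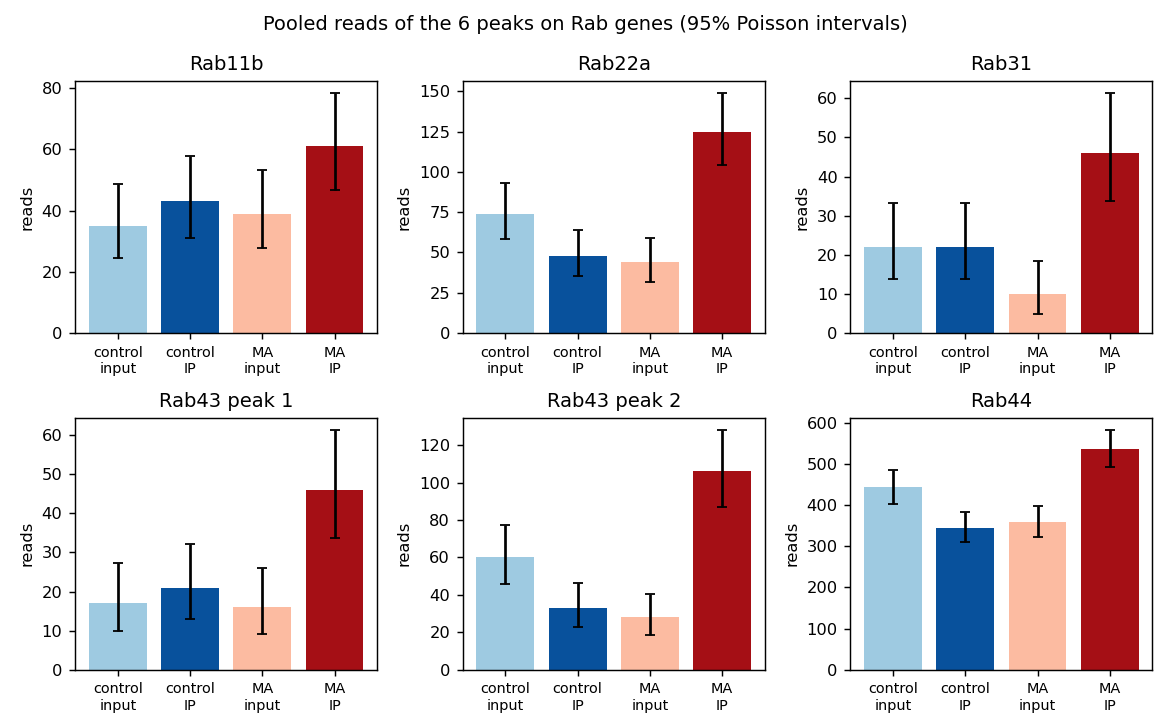
Reads of the 6 Rab peaks in the 4 groups, unscaled and pooled over 3 libraries each; bars start at 0 and lines are exact 95% Poisson intervals for counting error. Peak 1 of Rab43 is the one farther from the stop codon and peak 2 the nearer one, which held 60 input and 33 IP reads in control cells, and 28 input and 106 IP reads in MA cells.

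The largest change among them was on a peak listed on Rab43. As 90.4% of the Rab43 stretches are shared with Gm45140, the reads may come from either gene, which was not tested. The Rab43 peak nearer to the stop codon held 60 input and 33 IP reads in control cells, and 28 input and 106 IP reads in MA cells. IP reads were below input reads in control and above them in MA. Unscaled, control IP was below control input for 1414 of all 2643 peaks and MA IP below MA input for 69, so the side of the input is no mark of these genes. On the scaled log2 scale, IP over input stood at -0.78 without MA and at 1.02 with it, moving from percentile 3.33 to percentile 92.2 of all peaks. The change was 1.80 (interval 0.95 to 2.65), so that the ratio was 3.48-fold higher in MA.

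The neighbouring Rab43 peak, farther from the stop codon, had a smaller value. It held 17 input and 21 IP reads in control cells, and 16 input and 46 IP reads in MA cells. Its change was 0.24 (interval -0.98 to 1.46), and the intervals of the neighbours overlap. With the reads of both peaks summed, an alternative chosen after the data were seen, the change of Rab43 was 1.33 (interval 0.63 to 2.02). The peaks lie 50 bases apart and fragments were 100 to 200 nt long. Whether a fragment was counted in both peaks was not given in the sources used here. If it was, this interval is too narrow.

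In its 5′UTR peak Rab22a held 74 input and 48 IP reads in control cells, and 44 input and 125 IP reads in MA cells. The MA IP was the highest of the 4, and the control IP was below the control input. The scaled ratio was -0.54 in control and 0.61 in MA, percentiles 9.46 and 83.0 of all peaks. The change was 1.16 (interval 0.44 to 1.88), so that the ratio was 2.23-fold higher in MA. Rab22a and the nearer Rab43 peak were the only 2 of the 6 whose interval lay above 0, against 20.8% of all peaks, and none lay below 0, against 24.9% of all peaks.

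Rab31 held 22 input and 22 IP reads in control cells, and 10 input and 46 IP reads in MA cells, where the 10 were the lowest count of any Rab peak. Input and IP were equal in control, and IP exceeded input in MA. The change was 1.19 (interval -0.09 to 2.47), so a fold of this size cannot be told from no change at this depth. With the reads scaled by group totals the interval ran from 0.01 to 2.57.

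Rab11b, whose motif overlaps the stop codon, had a lower scaled ratio in MA, by the size of the values alone. It held 35 input and 43 IP reads in control cells, and 39 input and 61 IP reads in MA cells. Unscaled, the IP was above the input in both conditions. The scaled ratio was 0.37 in control and -0.24 in MA, percentiles 73.2 and 32.6 of all peaks. The change was -0.61 (interval -1.47 to 0.25), which was -0.51 after scaling by total reads and 0.35 without scaling. The direction therefore rests on the scaling, and its interval covers 0. About 9.75% of the stretches of Rab11b also occur in transcripts of other genes, mainly Rab11b-ps2.

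The Rab44 region held the most reads, with 443 input and 345 IP reads in control cells and 359 and 536 in MA cells, and showed the narrowest interval. Its change was -0.02 (interval -0.30 to 0.26). At this depth a 1.5-fold change relative to the typical peak lies outside the interval.

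**Figure D4:**
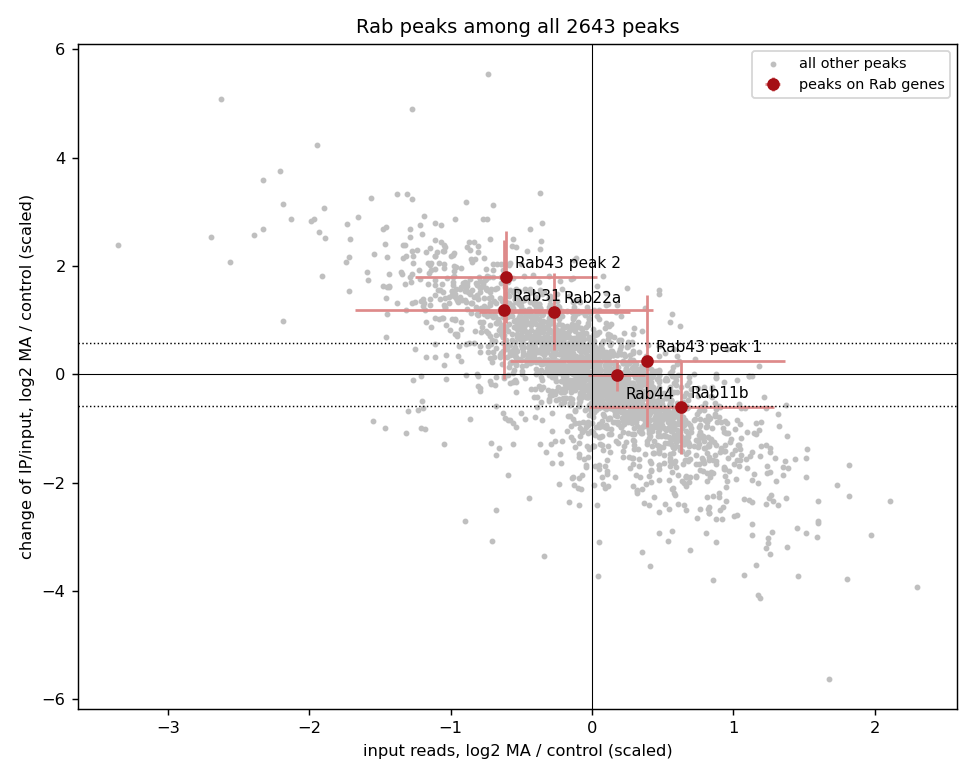
Change of the IP to input ratio (vertical) against the change of input reads (horizontal), both as scaled log2 of MA over control, for all 2643 peaks (grey) and the 6 Rab peaks (red, with 95% counting intervals); dotted lines mark 1.5-fold. The input reads enter both axes, with opposite sign, and the Rab peaks lie within the cloud of all peaks, from Rab11b at -0.61 to the nearer Rab43 peak (peak 2) at 1.80 on the vertical axis.

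The input reads over a peak reflect the level of the RNA there. By the 1.5-fold rule they were higher in MA for 1 of the 6 Rab peaks, against 12.1% of all peaks, and lower for 2, against 14.1% of all peaks. The higher one was Rab11b, with a scaled log2 change of 0.63 (interval -0.02 to 1.29). The lower ones were Rab31 with -0.62 (interval -1.68 to 0.43) and the nearer Rab43 peak with -0.61 (interval -1.25 to 0.03). The remaining values were -0.27 for Rab22a, 0.39 for the farther Rab43 peak and 0.17 for the Rab44 region. All 6 intervals covered 0, while those of 15.8% of all peaks lay above 0 and of 12% (318) below it. With the reads scaled by group totals, the nearer Rab43 peak had -0.66 (interval -1.30 to -0.02). Without scaling, where the median peak stood at -0.47, the intervals of Rab22a, Rab31, the nearer Rab43 peak and the Rab44 region lay below 0, so whether an input change was detectable rests on the scaling.

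The same input reads are the denominator of the IP to input ratio. In the arithmetic of the ratio, the change is the log2 change of the IP minus that of the input, which was below 0 for Rab22a, Rab31 and the nearer Rab43 peak, each with an interval that covered 0. Taken alone, the scaled IP reads had a log2 of MA over control of 1.19 (interval 0.63 to 1.75) for the nearer Rab43 peak and of 0.89 (interval 0.41 to 1.37) for Rab22a. For Rab31 it was 0.57 (interval -0.16 to 1.29) and for Rab11b 0.02 (interval -0.54 to 0.58). In bulk samples fewer RNA molecules per cell and a smaller share of cells with that RNA cannot be told apart.

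Presence of the motif and direction of change were set side by side as a description. The nearer Rab43 peak and the Rab31 peak, both past 1.5-fold, held no DRACH, while Rab22a and Rab11b, with the same motif letters, had values of 1.16 and -0.61. In all, 4 of the 6 peaks held DRACH, searched on the strand of the gene. The 4 include the Rab44 region, searched over 175 exonic bases, to which the following shares for short peaks do not apply. Of all peaks 50 bases long 60.0% held it (537 of 895), and of those 75 bases long 74.3% (289 of 389).

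The proteins that regulate Rabs were mostly well expressed. Of 73 genes listed for the Rab cycle, 71 were above 0 and 49 had a mean of at least 1000. That level was reached by 17 of 25 GEFs, 15 of 22 GAPs and 12 of 20 effectors. Of the listed genes known to act on Rab7 or with it, the GEF subunits Ccz1, Mon1b and Mon1a had means of 3232, 793 and 371, the GAPs Tbc1d15, Tbc1d5 and Tbc1d2 had 6694, 1208 and 321, and the effectors Fyco1 and Plekhm1 had 4536 and 2224, while Rilp had 4.93. Like Rab7, none of these 9 had a peak in the table used here, against 12 (16.4%) of the 73 listed genes and 12.5% of all genes above 0, and from so few genes nothing is read.

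The Rab cycle genes held 14 listed peaks on 12 genes. By the 1.5-fold rule the IP to input ratio was higher in MA for 6 of them and lower for 3, against the 25.7% and 27.4% of all peaks given before, with a median change of 0.38 against -0.05 over all peaks. Input reads were higher for 1 and lower for 6, against 12.1% and 14.1% of all peaks. The 6 peaks with a higher ratio were the same 6 that had lower input, which is the denominator of that ratio. The GAPs had 7 of the peaks, 4 of them higher (on Rab3gap2, Tbc1d10b, Tbc1d16 and Tbc1d25) and 1 lower (Tbc1d13), and these 4 were again the GAP peaks with lower input. In the order named, these 4 peaks held only 22, 10, 14 and 4 input reads in MA cells. From so few peaks and reads nothing is read about the GAPs. The GEFs had 6, with 2 higher (Madd and Dennd4b) and 2 lower (Dennd1a and Dennd5b, the latter listed at 0). Rab3gap2, a subunit of the complex that acts on Rab3 and Rab18, held 48 input and 27 IP reads in control cells and 22 and 85 in MA cells, with a change of 1.79 (interval 0.84 to 2.74). The only effector with a peak was Rab11fip2, a partner of Rab11, with 0.22 (interval -0.44 to 0.88).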

How the data were processed

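The series holds 12 MeRIP-seq libraries of HT22 cells. Per the labels, stranded libraries with UMIs of 8 bases were made, and the submitters' processing notes name HISAT2, StringTie and DESeq with mm10. Gene levels were deposited as DESeq2 base means, a signal normalized by the size factor of each library and averaged. Which libraries entered it, and the strand setting, were not given in the sources used here. Per the file headers, the peak table follows exomePeak2, and its read counts were pooled by the authors within each group before they were deposited. The headers name the group of each count but no library, and do not say how the libraries were combined. Each count was therefore taken here as the sum over the 3 libraries of its group, and the counting intervals rest on that reading. The other columns of both tables hold the authors' own fold changes, statistics and p-values and were not used, so expression was not compared between conditions. The number of unused columns of per-sample values is 0.

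A count model had been planned for single libraries. As reads were pooled, log2 ratios with intervals from counting error (normal quantile 1.96) were computed instead, after checking the code on simulated data. Lengths came from the longest coding transcript of GENCODE release M21, placed on GRCm38, which is mm10. Stretches of 50 bases were looked up in the transcripts of all other genes, on both strands for the Rab44 region. Sequences are from RefSeq's GRCm38 assembly. Tools were samtools 1.23.1 and Python 3.11.15 with pandas 2.3.3, matplotlib 3.10.9, numpy 2.4.6 and scipy 1.17.1. Named were the members with a peak, Rab7, the 10 highest and those at 0, with further members and regulators named after their values were seen. Members, lists and tests were chosen with earlier results of these data known. Alternatives were other scalings, read additions, folds, read minimums, lengths and motifs. 1 gene of the Rab cycle list is not reported here by name.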

Additional observations from a re-analysis of the deposited data

How the results depend on the processing

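The limits are few reads and pooled libraries: neither the spread between cultures nor the weight of 1 library can be seen, and leaving out replicates was not possible. No paired analysis was possible because the reads of each group are pooled over its replicates. The alternatives for single-library counts were not run for the same reason. Rab peaks higher in IP to input numbered 5 without scaling, against 3, while the share of all peaks went from 25.7% to 64.0%. Rab peaks lower numbered 0 with total scaling, without scaling or at 2-fold, against 1. Rab peaks with higher input numbered 0 under these 3 settings and 2 at 1.2-fold, against 1. Rab peaks with lower input numbered 0 at 2-fold, 1 with at least 20 reads in each group and 1 with the Rab43 peaks summed, against 2. The last setting, and leaving out the Rab44 peak, were chosen after the data were seen. The Rab11b change was reversed to 0.35 without scaling. Of 62 recomputed values of single peaks, 57 stayed within the counting interval of the reported value. Part of these could not move. A read minimum, leaving out Rab44 or summing the Rab43 peaks leaves the values of the other peaks unchanged. The 4 values outside the interval and the 1 reversed value all came without scaling. With the union of exons the median Rab level was 368 per kilobase and its percentile 66.3, and the percentile was 56.3 among genes with a mean of at least 10. Rab7 stayed first per kilobase with the union, at 4418 against 4292 for Rab10. DRACH was found in 3 peaks within the central 100 bases, and RRACH in 4, against 4.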
